A study of Mus musculus with 16 samples.

Results

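The genes of fatty acid uptake and oxidation were followed in ventricular RNA from 16 mouse hearts. The set held 35 genes of the 55573 in the count table, chosen by their role: uptake into the cell, activation, the carnitine shuttle, beta-oxidation, the electron transfer flavoprotein and known targets of the nuclear receptor PPARα. Earlier results of these data were known when the set was chosen, so counts set beside those of all genes describe it and do not test it. Each of the 35 matched a single row of the table, and all 35 passed the filter on low counts that left 19955 genes for testing. The question was how these genes stood after pressure overload of the left ventricle, and whether the deletion of Trbp (gene symbol Tarbp2, a partner of Dicer that binds double-stranded RNA) from cardiomyocytes altered them at rest or under load.

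All mice were male and carried the aMHC-MerCreMer transgene and Trbp-Flox/Flox alleles, so controls and Trbp-cKO mice shared the genotype. The αMHC promoter drives the recombinase in cardiomyocytes only, and other cells of the ventricle keep the gene. Trbp-cKO mice received tamoxifen at 30 mg/kg on 5 days from the age of 4 weeks. Control mice received corn oil. Effects of tamoxifen or of the active recombinase itself cannot be told apart from those of the deletion in this design. There were 4 hearts in each of 4 groups: control sham, control TAC, Trbp-cKO sham and Trbp-cKO TAC. TAC, or transverse aortic constriction, ties the aorta over a needle and thereby raises the pressure against which the ventricle pumps. The ventricles were collected from mice aged 16 weeks, about 8 weeks past the operation. The labels number the replicates without more on their origin, and each is taken here as 1 heart, so that p-values measure only the spread between these samples.

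The adult heart draws most of its energy from long-chain fatty acids. Lipoprotein lipase frees them from circulating triglyceride, CD36 and fatty acid transport proteins bring them into the cell, and acyl-CoA synthetases couple them to coenzyme A. The carnitine shuttle carries the acyl group into the mitochondrion, where a spiral of dehydrogenases, hydratases and thiolases shortens it and passes electrons on through the electron transfer flavoprotein. Many of the genes are transcribed under PPARα and its coactivator PGC-1α, and their fall in the overloaded heart is a textbook feature of its return towards a fetal pattern of fuel use.

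The DNA in front of the genes that fell is shown for 3 of them, to set beside the values that follow: Ucp3, which fell most, Cd36, which fell in both genotypes within narrow groups, and Slc27a1, which passed in both genotypes with the lowest adjusted p in control hearts. PPARα with its partner RXR binds pairs of sites like AGGTCA, which is in capitals wherever it or its reverse complement occurs. Each run is the 250 bases before a RefSeq transcription start on GRCm38.p6, written 5′ to 3′ on the strand of the gene.
Ucp3, chr7:100472741-100472990, plus strand: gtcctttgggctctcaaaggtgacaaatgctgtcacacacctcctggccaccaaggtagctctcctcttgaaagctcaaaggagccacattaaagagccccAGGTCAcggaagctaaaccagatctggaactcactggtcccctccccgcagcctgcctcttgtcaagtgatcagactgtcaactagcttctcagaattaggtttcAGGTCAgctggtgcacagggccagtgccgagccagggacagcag
Cd36, chr5:17835897-17836146, minus strand: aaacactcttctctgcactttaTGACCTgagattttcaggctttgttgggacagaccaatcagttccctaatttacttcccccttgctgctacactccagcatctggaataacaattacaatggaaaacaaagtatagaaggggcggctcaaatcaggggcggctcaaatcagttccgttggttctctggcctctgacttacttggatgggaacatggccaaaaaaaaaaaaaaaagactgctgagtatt
Slc27a1, chr8:71568621-71568870, plus strand: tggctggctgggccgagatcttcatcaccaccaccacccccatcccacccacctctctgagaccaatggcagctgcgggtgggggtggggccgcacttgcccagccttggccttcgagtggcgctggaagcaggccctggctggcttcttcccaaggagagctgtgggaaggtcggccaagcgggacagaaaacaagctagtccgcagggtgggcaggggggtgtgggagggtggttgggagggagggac
In Ucp3, copies began 149 and 44 bases before the start, both on the strand of the gene. In Cd36 a single copy began 228 bases before it on the other strand, and Slc27a1 had none here or in its 2 other listed promoters. Of the 10 listed members that fell in either genotype, Ucp3 and Cd36 were the only 2 with a copy. The 3 genes shown therefore hold it more often than the members that fell. The last 25 bases of the 300-base window of Cd36 were in none of its annotated transcripts, so that its start is less certain than those of the other windows shown.

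Levels are given as CPM, the counts of a gene relative to the total of its heart after TMM scaling. Fold changes, standard errors and adjusted p are from edgeR's quasi-likelihood test with Benjamini-Hochberg adjustment over the 19955 genes, and a gene was called at an adjusted p of at most 0.05. Total counts per heart lay between 45166994 and 68274222. Tarbp2 stood at 21.1 to 33.3 CPM in the 8 control hearts and at 7.14 to 11.4 CPM in the 8 Trbp-cKO hearts, and the groups with and without tamoxifen did not overlap.

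Before any comparison, 3 hearts stood apart from the others of their group. The median of the 35 genes, each taken as a percentage of its mean in control sham hearts, was 94.2, 100.4, 98.3 and 107% in the control sham hearts. In control TAC hearts it was 28.6, 21.7, 75.9 and 77.8%, so that replicates 1 and 2 lay far below replicates 3 and 4. Trbp-cKO sham hearts had medians of 102, 103, 76.1 and 92.5%. Trbp-cKO TAC hearts had 62.2, 68.3, 60.5 and 30.1%, the last being replicate 4. Of the 35 genes, 34 were lowest of their group in control TAC replicate 2, and 30 were lowest of theirs in Trbp-cKO TAC replicate 4. The ratio of the highest to the lowest heart of a group had a median over the genes of 1.19 and 3.50 in control hearts after sham surgery and TAC, and of 1.37 and 2.19 in Trbp-cKO hearts. The effect of TAC in control hearts is therefore given with all hearts and without control TAC replicates 1 and 2.

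**Figure D1:**
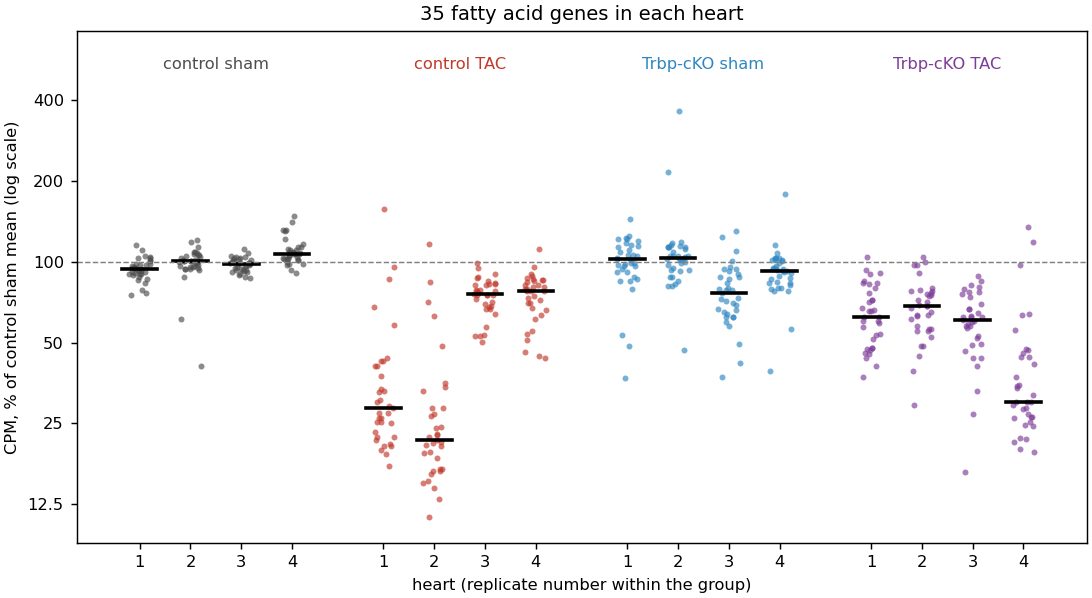
CPM of the 35 fatty acid genes in each of the 16 hearts, as a percentage of the gene's mean in control sham hearts on a log2 axis. Each point is a gene and each bar the median of a heart, which ran from 21.7% in control TAC replicate 2 to 107% in control sham replicate 4.

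The same hearts differed in the makeup of their RNA. The summed CPM of 13 cardiomyocyte markers ran from 75249 to 81325 in control sham hearts, and it was 36458, 29093, 73638 and 73851 in control TAC replicates 1 to 4. In Trbp-cKO hearts the sum ran from 60436 to 76095 after sham surgery, and it was 62252, 71999, 64417 and 39746 after TAC. The defining markers of ventricular cardiomyocytes were thus abundant in every library, though low in the 3 hearts named above. The 10 fibroblast markers summed to 1782 to 1966 CPM after sham surgery and 2175 to 3313 CPM after TAC in control hearts, and to 2109 to 2732 and 2786 to 5081 CPM in Trbp-cKO hearts. The 8 endothelial markers summed to 797 to 913, 810 to 1692, 726 to 1275 and 702 to 1214 CPM in the same order, with the highest values of each TAC group in the hearts that stood apart. The 7 adipocyte markers never summed to more than 1.48 CPM. Atrial markers, Nppa among them, summed to 542 to 1019 CPM in control sham and 1616 to 3860 CPM in control TAC hearts. In Trbp-cKO hearts they summed to 1009 to 1516 CPM after sham surgery and 10257 to 15676 CPM after TAC. Smooth muscle and pericyte markers ran from 853 to 1023 CPM in control sham and from 1106 to 1357 CPM in Trbp-cKO sham hearts. After TAC they ran from 756 to 1050 CPM in control and from 884 to 1370 CPM in Trbp-cKO hearts. In bulk RNA, fewer cardiomyocytes and less of a transcript per cardiomyocyte cannot be told apart. Transcripts of the mitochondrial chromosome held 38.2% and 38.8% of the counts in control TAC replicates 1 and 2 and 18.2% to 26.3% in the other 14 hearts.

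Set against the cardiomyocyte markers, the fatty acid genes separated sham from TAC hearts in both genotypes. For every 100 CPM of these markers, the 35 genes summed to 22.8 to 25.6 CPM in control sham and 22.8 to 26.4 CPM in Trbp-cKO sham hearts. After TAC they summed to 17.9 to 19.4 CPM in control and 18 to 19.9 CPM in Trbp-cKO hearts. All 8 TAC hearts lay below all 8 sham hearts in this ratio, including the 3 that stood apart, where it was 17.9, 18.2 and 18. A sum weighs the abundant genes most. The ratio also depends on the markers, among them Myl3, which the study reported as lower in Trbp-cKO hearts without pressure overload. Whether load or the deletion changed the markers per cardiomyocyte was not tested, nor was how many other genes show this order.

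**Figure D2:**
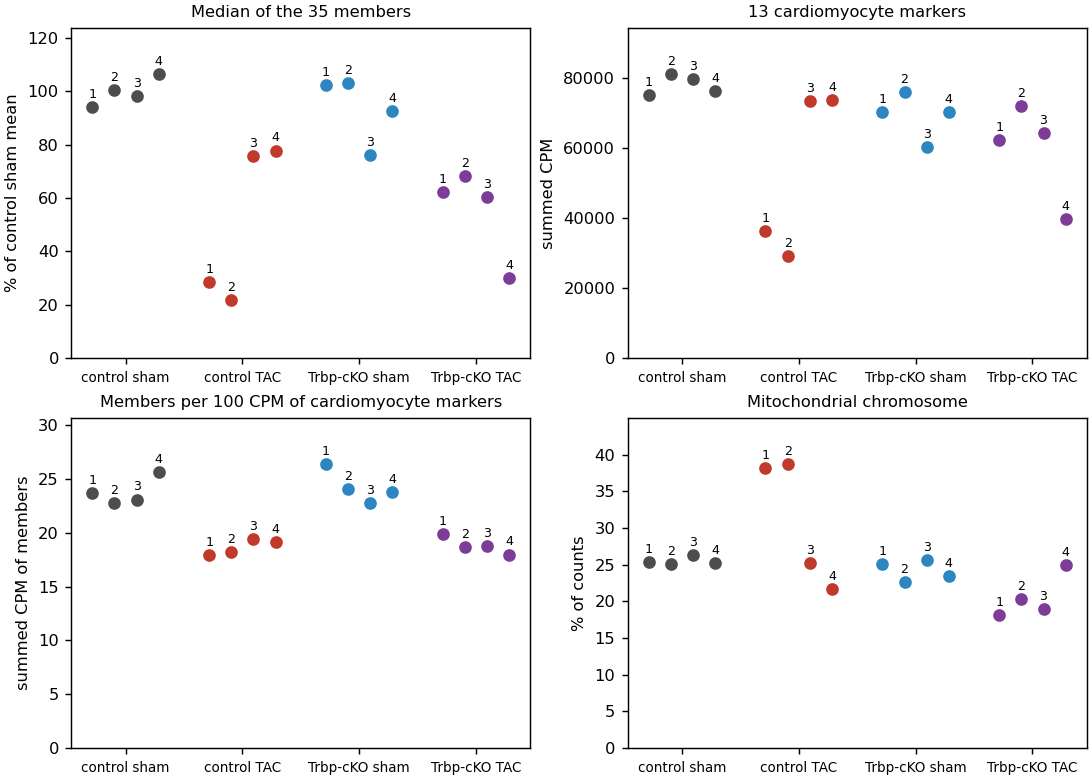
Heart by heart, with the replicate number above each point: the median of the 35 genes, the summed CPM of 13 cardiomyocyte markers, the sum of the genes per 100 CPM of these markers, and the percentage of counts from the mitochondrial chromosome. The hearts with low medians also had low marker sums. The summed CPM of the genes per 100 CPM of the markers ran from 22.8 to 26.4 in sham and from 17.9 to 19.9 in TAC hearts.

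Of the 35 genes, 10 fell and none rose in control hearts after TAC against sham surgery (edgeR, adjusted p of at most 0.05), where 2.2% of all genes tested were called lower and 4.09% higher. No member rose at an unadjusted p under 0.05 either, and DESeq2 called 0 higher. The genes that fell were Slc27a1, Acot2, Lpl, Pdk4, Mlycd, Pnpla2, Cd36, Etfb, Acaa2 and Hadh. In all, 34 of the 35 had a log2 fold change below 0, 29 had an unadjusted p under 0.05, and the median was -0.97 against 0.02 over all genes tested. Of the 19955 genes tested, 47.3% lay below 0, and 2230 were lower and 3079 higher at that p. For 30 genes, all 4 control TAC hearts lay below all 4 control sham hearts, a pattern that 8.78% of all genes showed (8.64% showed the opposite order, and no member did). Thus 20 genes were separated without being called, with adjusted p between 0.0561 and 0.207. The ratio of the highest to the lowest control TAC heart had a median of 4.02 for these 20 genes (2.39 for Cpt1b to 5.95 for Etfdh) and of 2.37 for the 10 called genes (1.25 for Cd36 to 4.63 for Hadh).

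The size of the fall rested on control TAC replicates 1 and 2, and the number of calls on single hearts. Leaving out any 1 of the 4 control sham hearts, or control TAC replicate 1 or 2, left 2 to 5 calls, where 0.606% to 1.09% of all genes were called lower, and leaving out control TAC replicate 3 or 4 gave 19 and 21, beside 4.94% and 5.44%. Cd36, Pnpla2, Mlycd, Hadh, Acaa2 and Etfb were each past the threshold in none of the former 6 fits (adjusted p of 0.053 to 0.147). Without both low hearts, all 35 genes still had a log2 fold change below 0 but the median was -0.36, 12 had an unadjusted p under 0.05 and 1, Slc27a1, was called, beside 0.207% of all genes. In that fit, 902 of the 20821 genes tested were lower at an unadjusted p under 0.05. When Trbp-cKO TAC replicate 4 was left out as well, the median stayed at -0.36 and 8 genes were called, beside 1.01% of all genes. These were Slc27a1, Acaa2, Acot2, Lpl, Mlycd, Pnpla2, Eci1 and Plin5, at the same folds as without the low hearts alone and with adjusted p from 0.00682 to 0.0464, so that calls given below as lost without the low hearts were regained there for Acaa2, Acot2, Lpl, Mlycd and Pnpla2.

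Among the uptake genes, Slc27a1 fell in each genotype. It encodes the fatty acid transport protein FATP1, an acyl-CoA synthetase that traps fatty acids as they enter, and lies at chr8:71568882-71587302 on the plus strand of GRCm38. Its level was 154, 170, 146 and 204 CPM in control sham and 69.0, 45.7, 96.1 and 85.8 CPM in control TAC hearts. The highest TAC heart lay well below the lowest sham heart. The log2 fold change was -1.18 ± 0.19 (SE, adjusted p = 0.00389), and it was -0.89 with an adjusted p of 0.0219 without control TAC replicates 1 and 2, called the low hearts in what follows. Trbp-cKO sham hearts had 172, 193, 156 and 170 CPM and Trbp-cKO TAC hearts 76.6, 95.0, 97.1 and 77.0 CPM, with a log2 fold change of -1.0 ± 0.19 (adjusted p = 0.00315). Trbp-cKO TAC replicate 4 was not set apart from its group for this gene.

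Lpl encodes lipoprotein lipase, which works on the capillary surface. It measured 3435, 3152, 3427 and 3234 CPM in control sham and 1352, 1176, 2262 and 2099 CPM in control TAC hearts, a log2 fold change of -0.94 ± 0.20 (adjusted p = 0.0154). The groups did not overlap, yet the call was lost without control TAC replicate 1 (adjusted p = 0.0602) and without both low hearts (-0.60, adjusted p = 0.119). In Trbp-cKO hearts, the level was 2557 ± 291 CPM after sham surgery and 1813 ± 260 CPM after TAC (SD, n = 4), with a log2 fold change of -0.50 that did not pass (adjusted p = 0.143).

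Cd36, the main fatty acid translocase of the heart, had narrow groups. It stood at 1281 ± 37.7 CPM in control sham and 919 ± 100 CPM in control TAC hearts, and at 1248 ± 77.1 and 919 ± 90.8 CPM in the Trbp-cKO groups. The falls were small and alike in size, with log2 fold changes of -0.48 ± 0.12 (adjusted p = 0.0352) and -0.44 ± 0.12 (adjusted p = 0.0351), the former being -0.35 without the low hearts (adjusted p = 0.282). Fabp3, the fatty acid binding protein of heart muscle, gave -0.64 ± 0.30 in control (adjusted p = 0.185, and -0.15 without the low hearts) and -0.32 ± 0.30 in Trbp-cKO hearts (adjusted p = 0.603, and -0.13 when Trbp-cKO TAC replicate 4 was left out along with the low hearts). About 26.0% of the 75-base words in its exons also occur in other annotated genes, chiefly its pseudogene Fabp3-ps1, so its count is uncertain to that extent. Angptl4, which inhibits lipoprotein lipase, was the single member with a positive log2 fold change in control hearts (0.17 ± 0.31, adjusted p = 0.749, and -0.17 without the low hearts), at only 2.61 to 9.20 CPM over all 16 hearts.

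At the activation step, the mitochondrial thioesterase Acot2, which splits acyl-CoA back to the free acid, fell in both genotypes. Its CPM were 55.1, 60.9, 56.2 and 84.3 in control sham and 16.8, 13.5, 33.8 and 29.6 in control TAC hearts (log2 fold change -1.45 ± 0.26, adjusted p = 0.00741). Trbp-cKO hearts had 63.1, 67.4, 45.8 and 59.3 CPM after sham surgery and 28.0, 28.6, 31.7 and 18.2 CPM after TAC (-1.14 ± 0.26, adjusted p = 0.0115). In neither genotype did the groups overlap. The call in control hearts was lost without control TAC replicates 1 and 2 (-1.01, adjusted p = 0.0668). Acot2 shares 21.2% of its 75-base words, mainly with its neighbour and paralog Acot1, the cytosolic enzyme. Acot1 itself, which is no member, had the largest fall among the other genes of the pathway: from 12.1 to 23.7 CPM in control sham to 2.43 to 4.95 in control TAC hearts (-2.18 ± 0.24, adjusted p = 0.000352, and -1.80 with an adjusted p of 0.00419 without the low hearts), and with a log2 fold change of -1.60 ± 0.24 in Trbp-cKO hearts (adjusted p = 0.000571). Reads that both genes could claim may have been split between them.

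Acsl1, the acyl-CoA synthetase most abundant in heart, measured 520 to 652 CPM in control sham hearts and 127, 101, 514 and 500 CPM in control TAC hearts, where the replicates fell into pairs. Its log2 fold change of -0.97 ± 0.48 was not called (adjusted p = 0.207), and it was -0.27 without the low hearts. Acot13 gave -0.20 ± 0.13 in control (adjusted p = 0.329, and -0.07 without the low hearts) and -0.25 ± 0.13 in Trbp-cKO hearts (adjusted p = 0.303).

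Both genes of the lipid droplet had all 4 TAC hearts below all 4 sham hearts in each genotype, as 2.83% of all genes did. Pnpla2, or adipose triglyceride lipase, which starts the breakdown of stored triglyceride, fell in control hearts from 297 ± 27.3 to 149 ± 67.3 CPM (log2 fold change -0.99 ± 0.25, adjusted p = 0.0321), a call that was lost without the low hearts (-0.52, adjusted p = 0.198). In Trbp-cKO hearts it was 293 ± 38.1 and 211 ± 31.5 CPM (-0.47 ± 0.25, adjusted p = 0.285). Plin5, which tethers droplets to mitochondria, was not called in either genotype (-1.11 and -0.71, adjusted p = 0.115 and 0.344), and the former was -0.43 without the low hearts.

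Carnitine palmitoyltransferase 1, the outer gate of the shuttle, is made in the heart mainly from Cpt1b and Cpt1a. Cpt1b is the muscle form (chr15:89416405-89425863, minus strand). It measured 538, 598, 622 and 627 CPM in control sham and 255, 204, 464 and 487 CPM in control TAC hearts. The groups did not overlap, but the log2 fold change of -0.76 ± 0.26 missed the threshold (adjusted p = 0.0833), and it was -0.33 without control TAC replicates 1 and 2. It was called when control TAC replicate 3 or 4 or Trbp-cKO TAC replicate 4 was left out (adjusted p = 0.0413, 0.0299 and 0.0484). In Trbp-cKO hearts, Cpt1b measured 544, 590, 473 and 552 CPM after sham surgery and 423, 466, 450 and 248 CPM after TAC (-0.44 ± 0.25, adjusted p = 0.33, and -0.28 without all 3 hearts that stood apart).

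Cpt1a is the form of liver and of many other cells, non-cardiomyocytes included (chr19:3322334-3385733, plus strand). It measured 33.4, 47.7, 38.8 and 41.1 CPM in control sham and 38.6, 34, 39.7 and 34.6 CPM in control TAC hearts, with overlapping groups (-0.13 ± 0.15, adjusted p = 0.578). In Trbp-cKO hearts, the values were 34.1, 45.8, 44.0 and 46.6 CPM after sham surgery and 37.4, 30.6, 32.9 and 47.8 CPM after TAC (-0.20 ± 0.15, adjusted p = 0.473, and -0.35 without all 3 hearts). The low hearts had 38.6 and 34 CPM, the latter the lowest of its group, and without them the control value was -0.12. Trbp-cKO TAC replicate 4 had the highest value of its group.

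The count of Cpt1b has a limit of its own. A read-through gene, Gm44502, is annotated over it on the same strand, and 77.1% of the 75-base words of Cpt1b occur elsewhere in the annotation, nearly all of them in Gm44502. Its CPM were 59.4 and 68.3 in control TAC replicates 1 and 2 and 42.5 in Trbp-cKO TAC replicate 4, against 3.91 to 29.1 in the other 13 hearts. In the hearts with low Cpt1b, then, the overlapping gene was assigned more, and the part of this in the values of Cpt1b was not tested.

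Of the other 4 genes of the shuttle, 1 was called in control and 0 in Trbp-cKO hearts. Over all genes, 2.2% and 3.92% were called lower. Mlycd encodes malonyl-CoA decarboxylase, which removes the natural inhibitor of the outer gate, and it fell in control hearts from 86.8 ± 7.77 to 39.3 ± 18.9 CPM (-1.14 ± 0.28, adjusted p = 0.0278), which was not called without the low hearts (-0.65, adjusted p = 0.197). In Trbp-cKO hearts, the log2 fold change was -0.80 ± 0.28 (adjusted p = 0.0834). Cpt2, the inner transferase, gave -0.95 and -1.05 in the control and Trbp-cKO comparisons (adjusted p = 0.128 and 0.0937). Slc25a20, the carnitine-acylcarnitine carrier, gave -1.17 and -0.84 (adjusted p = 0.0874 and 0.224), and the acetyltransferase Crat gave -0.97 and -0.81 (adjusted p = 0.143 and 0.242). Without the low hearts, the control values of the last 3 were -0.35, -0.51 and -0.32. For each of these 4 genes, all TAC hearts lay below all sham hearts in both genotypes, as for 2.83% of all genes.

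All 9 genes of the beta-oxidation spiral had separated groups in control hearts, and 2 were called. Over all genes, 8.78% were separated in that direction and 2.2% were called lower. Acaa2, the thiolase of the last step, fell from 539 ± 45.7 to 208 ± 131 CPM in control (-1.37 ± 0.37, adjusted p = 0.0398) and from 583 ± 64.1 to 205 ± 62.7 CPM in Trbp-cKO hearts (-1.51 ± 0.37, adjusted p = 0.0169). Hadh, the hydroxyacyl-CoA dehydrogenase for short and medium chains, fell from 310 ± 63.3 to 119 ± 79.2 CPM in control (-1.38 ± 0.39, adjusted p = 0.0476) and from 286 ± 68.8 to 118 ± 31.3 CPM in Trbp-cKO hearts (-1.28 ± 0.39, adjusted p = 0.0498). The remaining 7 genes, none of them called, had log2 fold changes of -1.06 (Hadha) to -0.74 (Acadl) in control and of -0.78 (Hadha) to -0.25 (Acadl) in Trbp-cKO hearts. Without the low hearts, neither call in control hearts was kept (Acaa2 -0.75, adjusted p = 0.223, and Hadh -0.74, adjusted p = 0.277), and the 7 other genes ran from -0.37 (Hadha) to -0.19 (Acadl). In Trbp-cKO hearts without all 3 hearts that stood apart, Hadha gave -0.55, Hadhb -0.36, Echs1 -0.33 and Acadl -0.07.

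Acadm and Hadha show how the uncalled genes were spread, and they were picked after their values were seen. Acadm, the medium-chain acyl-CoA dehydrogenase, measured 815, 983, 898 and 960 CPM in control sham and 203, 155, 751 and 726 CPM in control TAC hearts (-0.99 ± 0.43, adjusted p = 0.161). Hadha, the α subunit of the trifunctional protein, measured 1067, 1205, 1128 and 1274 CPM in control sham and 233, 194, 894 and 914 CPM in control TAC hearts (-1.06 ± 0.44, adjusted p = 0.143). In both cases replicates 1 and 2 lay far below replicates 3 and 4, and without the former the log2 fold changes were -0.31 and -0.37.

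The auxiliary enzymes, which prepare unsaturated chains for the spiral, were separated in both genotypes, with TAC hearts lower. Over all genes, 2.83% had this order in both. Eci1, an enoyl-CoA isomerase, fell in Trbp-cKO hearts from 204 ± 29.6 to 93.0 ± 27.0 CPM (-1.13 ± 0.30, adjusted p = 0.0269), and in control hearts it gave -1.02 ± 0.30 (adjusted p = 0.0561). Decr1, the dienoyl-CoA reductase, came close in both (-1.06 and -1.08, adjusted p = 0.0665 and 0.0512), and Eci2 gave -0.83 and -0.65 (adjusted p = 0.0953 and 0.19). The control values were -0.51 for Eci1, -0.49 for Decr1 and -0.30 for Eci2 without the low hearts.

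Of the electron transfer flavoprotein, the β subunit gene Etfb fell in both genotypes. It measured 434, 410, 390 and 448 CPM in control sham and 245, 204, 319 and 315 CPM in control TAC hearts (-0.63 ± 0.17, adjusted p = 0.0365), and the call was lost without the low hearts (-0.41, adjusted p = 0.386). In Trbp-cKO hearts it measured 434, 357, 396 and 333 CPM after sham surgery and 193, 231, 205 and 146 CPM after TAC (-0.97 ± 0.17, adjusted p = 0.00157). Neither pair of groups overlapped. The gene shares 39.6% of its 75-base words, mostly with the overlapping Gm45233, which stood at no more than 3.43 CPM in any heart. The α subunit gene Etfa and the dehydrogenase gene Etfdh were not called in either genotype, with log2 fold changes of -0.95 and -1.11 in control and -0.57 and -0.77 in Trbp-cKO hearts, and of -0.30 and -0.37 in control without the low hearts. Without all 3 hearts, the Trbp-cKO values were -0.37 and -0.53.

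**Figure D3:**
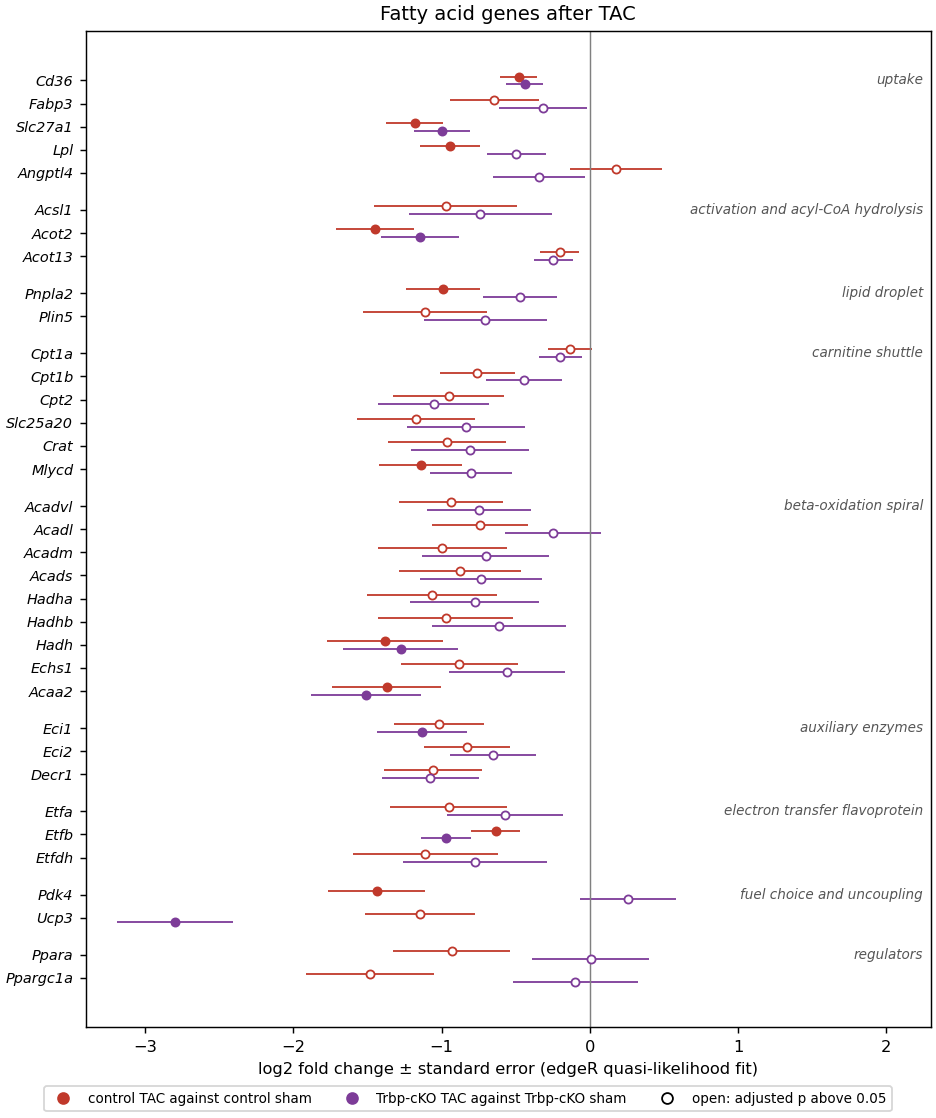
Log2 fold change after TAC with its standard error for the 35 genes, ordered by role, in control (red) and Trbp-cKO hearts (purple). Filled points passed an adjusted p of 0.05 in edgeR's quasi-likelihood test, 10 in control and 8 in Trbp-cKO hearts, and all filled points lie below 0.

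Across the set, Trbp-cKO hearts gave 8 falls and no rise after TAC (Ucp3, Etfb, Slc27a1, Acot2, Acaa2, Eci1, Cd36 and Hadh), where 3.92% of all genes were called lower and 6.02% higher. No gene of the set rose at an unadjusted p under 0.05, and DESeq2 called none higher. The log2 fold change was below 0 for 33 of 35 genes, with a median of -0.71 against -0.00 over all genes tested. All TAC hearts lay below all sham hearts for 20 genes, where 8.14% of all genes were so ordered and 9.05% were ordered the other way (no member was), and the same 20 were also separated in control hearts, as 2.83% of all genes were in both genotypes. The control and Trbp-cKO comparisons share no heart. Their calls had 6 genes in common, Acaa2, Acot2, Cd36, Etfb, Hadh and Slc27a1, which is 60.0% of the calls in control and 75% of those in Trbp-cKO hearts. Over all genes, 154 were called lower in both, or 35.1% and 19.7% of the calls.

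Without Trbp-cKO TAC replicate 4 there were 5 falls, as there were without Trbp-cKO sham replicate 1 or 2 or Trbp-cKO TAC replicate 3, and 2.49% to 3.04% of all genes were called lower in these 4 fits. Eci1, Cd36 and Hadh were the calls that single hearts could undo, in 5, 11 and 12 of the 16 fits that left out 1 heart each. In the fits that lost them, their log2 fold changes were -1.20 to -0.94, -0.47 to -0.39 and -1.46 to -1.10. Leaving out both low control TAC hearts leaves the Trbp-cKO hearts as they are. The median was then -0.71 and 20 genes were called, beside 6.81% of all genes. Without Trbp-cKO TAC replicate 4 as well, the median was -0.50 and 21 genes were called, beside 7.53% of all genes. The 8 genes called with all hearts were among these 21, at log2 fold changes from -2.89 (Ucp3) to -0.39 (Cd36).

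Of the genes of fuel choice and uncoupling, Pdk4 was called in control and Ucp3 in Trbp-cKO hearts. Ucp3 encodes a carrier of the inner mitochondrial membrane that rises with fatty acid supply, and it had the largest fall of the set. It measured 23.0, 58.0, 20.8 and 28.5 CPM in Trbp-cKO sham and 5.98, 4.70, 2.64 and 5.43 CPM in Trbp-cKO TAC hearts, a log2 fold change of -2.80 ± 0.39 (adjusted p = 0.000315). In control hearts it measured 12.6, 17.5, 15.8 and 18.2 CPM after sham surgery and 7.04, 3.15, 11.6 and 7.13 CPM after TAC (-1.15 ± 0.37, adjusted p = 0.0755, and -0.77 without the low hearts). The deeper fall in Trbp-cKO hearts began from a higher level, since all 4 Trbp-cKO sham hearts lay above all 4 control sham hearts. That difference was 1.02 ± 0.37 on the log2 scale and was not called (adjusted p = 0.199, and 0.59 without Trbp-cKO sham replicate 2), and neither was the interaction of deletion and TAC (-1.65, adjusted p = 0.146).

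Pdk4 encodes the kinase that shuts off pyruvate dehydrogenase and so turns the heart from glucose to fat. It measured 204, 238, 246 and 402 CPM in control sham and 83.5, 61.5, 137 and 120 CPM in control TAC hearts, and fell by 1.44 ± 0.33 on the log2 scale (adjusted p = 0.0219). The groups did not overlap, but the call was lost without control sham replicate 4 (adjusted p = 0.07) or control TAC replicate 1 or 2 (0.0789 and 0.0695), and without both the value was -1.09 (adjusted p = 0.264). In Trbp-cKO hearts it measured 133, 285, 134 and 153 CPM after sham surgery and 247, 212, 119 and 266 CPM after TAC, with overlapping groups (0.26 ± 0.32, adjusted p = 0.713). The interaction was 1.70 ± 0.46 and did not pass (adjusted p = 0.0917).

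**Figure D4:**
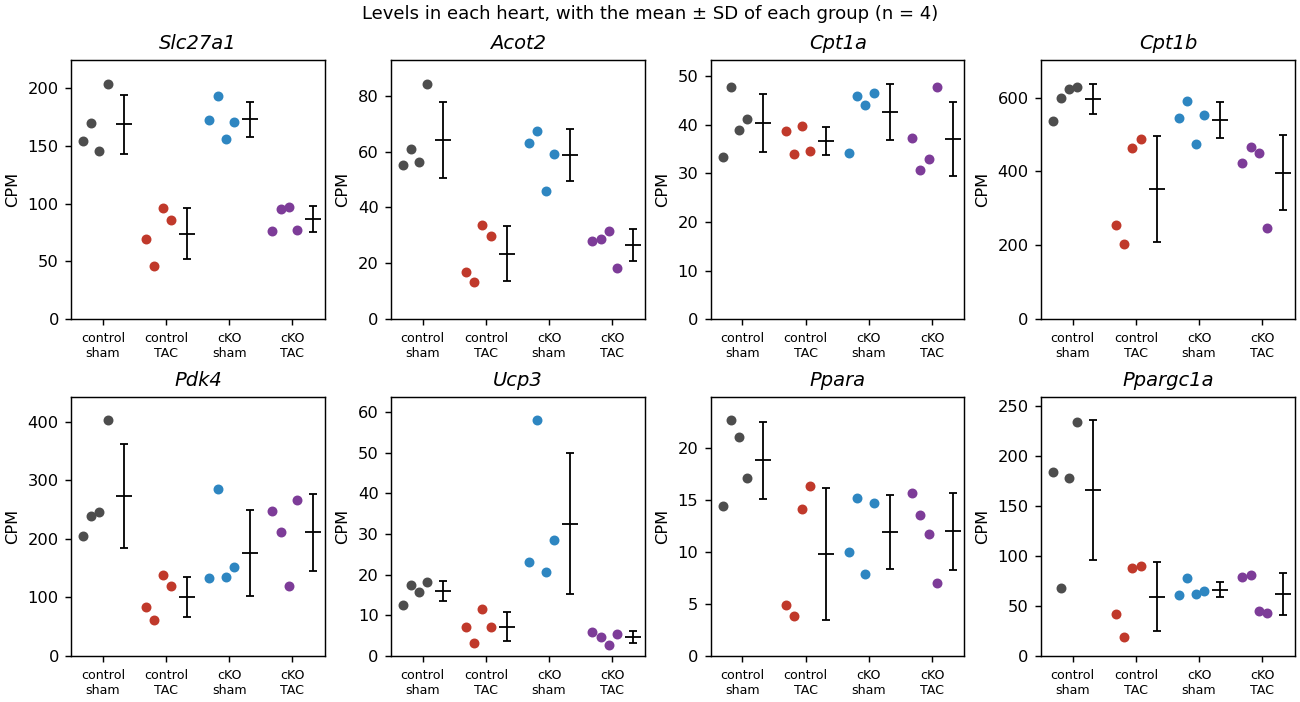
CPM of 8 genes in each heart by group, with the mean ± SD of 4 hearts beside the points and axes that start at 0. Slc27a1 and Acot2 were lower in all TAC hearts of both genotypes, Cpt1a overlapped throughout, and Pdk4 was lower after TAC in control hearts, with an interaction that did not pass.

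Neither regulator was called after TAC in control hearts in the main fit, and the groups of both overlapped. Ppargc1a, which encodes PGC-1α, measured 184, 68, 178 and 233 CPM in control sham and 41.9, 18.6, 87.3 and 89.3 CPM in control TAC hearts (-1.48 ± 0.43, adjusted p = 0.0515). Control sham replicate 2 lay among the TAC values. The gene was called without that heart (adjusted p = 0.0385), without control TAC replicate 3 or 4 (0.0309 and 0.0278) or without Trbp-cKO TAC replicate 4 (0.0439), and it was not without the low hearts (-0.91, adjusted p = 0.408). DESeq2 called it too, as did edgeR with the clock score, with halved counts or with a filter of at least 1 CPM in 4 hearts. Trbp-cKO hearts had 60.9, 77.6, 61.5 and 64.9 CPM after sham surgery and 78.5, 80.7, 44.9 and 43.3 CPM after TAC, which overlapped (-0.10 ± 0.42, adjusted p = 0.932).

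Ppara, the nuclear receptor gene, measured 14.4, 22.6, 21 and 17.1 CPM in control sham and 4.93, 3.87, 14.1 and 16.4 CPM in control TAC hearts (-0.93 ± 0.40, adjusted p = 0.151). It was called without control TAC replicate 4 (adjusted p = 0.0465) and stood at -0.30 without the low hearts (adjusted p = 0.858). In Trbp-cKO hearts it measured 10, 15.2, 7.88 and 14.6 CPM after sham surgery and 15.7, 13.5, 11.7 and 7.00 CPM after TAC (0.00 ± 0.39, adjusted p = 0.997).

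The deletion itself left no call in the set at rest. Between the sham groups, 0 of 35 genes were called in either direction, where 0.666% of all genes were lower and 1.02% higher. The median log2 fold change was -0.12 against 0.01 over all genes. At an unadjusted p under 0.05 there was 1 lower gene, Ppargc1a (166 ± 69.7 CPM in control sham and 66.2 ± 7.79 CPM in Trbp-cKO sham hearts, -1.32 ± 0.43, adjusted p = 0.149), and 1 higher gene, Ucp3. Of the 19955 genes tested, 1065 were lower and 1668 higher at that p. DESeq2 called Ppargc1a lower and no member higher, beside 1.92% and 2.61% of all genes. Ppargc1a was also called when control TAC replicates 1 and 2, which are not in this comparison, were left out of the fit (adjusted p = 0.0326). All 4 Trbp-cKO sham hearts lay below all 4 control sham hearts for 3 genes, Lpl, Plin5 and Acadvl, where 6.96% of all genes were so ordered, and Ucp3 had the opposite order, as 7.74% of all genes did. The log2 fold changes of the former were -0.37, -0.38 and -0.22.

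Clock genes moved with these groups. A score of 4 positive-arm minus 10 negative-arm clock genes lay between -1.33 and -0.48 in control and between -3.65 and -3.39 in Trbp-cKO hearts after sham surgery. After TAC it lay between -2.82 and -2.08 in control and between -3.03 and -0.67 in Trbp-cKO hearts. The time of day at which each heart was taken is not given in the sources used here. Since the score did not overlap between the sham groups, the score and the deletion cannot be told apart at rest. The score also did not overlap between sham and TAC hearts of either genotype, so the same limit holds for both TAC comparisons. With the score in the fit, 0 of all genes were called between the sham groups, Tarbp2 included. In that fit, the log2 fold change of Ucp3 in sham hearts was 0.09 in place of 1.02, that of Ppargc1a was -2.92, and Ucp3 was the single member called after TAC in the Trbp-cKO genotype (-2.31, adjusted p = 0.025). Slc27a1 (-0.90, adjusted p = 0.0931) and Etfb (-0.77, adjusted p = 0.0799) were among the calls lost, where 0.837% of all genes were called lower. After TAC in control hearts, the same fit called 10 members lower, beside 0.887% of all genes. Ppargc1a and Eci1 were among these, while Cd36 and Mlycd were not. The part of the clock in these levels was not tested further.

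Under load the effect of the deletion depended on which hearts were counted. Between the TAC groups, 0 of 35 genes were called, where 1.65% of all genes were lower and 3.88% higher. The median log2 fold change was 0.10 (-0.01 over all genes), and 26 genes lay above 0. Leaving out 1 heart moved this median between -0.11 and 0.37, and it was below 0 without control TAC replicate 1 or 2. At an unadjusted p under 0.05 there was 1 lower gene, Etfb (-0.48, adjusted p = 0.104), and 1 higher gene, Pdk4 (1.07 ± 0.33, adjusted p = 0.0701). Of the 19955 genes tested, 1893 were lower and 2381 higher at that p. DESeq2 called both Etfb and Pdk4, where it called 3.51% of all genes lower and 7.71% higher. Pdk4 was also called in edgeR's fit without Trbp-cKO TAC replicate 3 (adjusted p = 0.0473). No gene had all hearts of the groups apart in either direction, where 3.93% and 6.12% of all genes did.

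Without control TAC replicates 1 and 2 the sign of the comparison turned. The median was then -0.45, 32 of 35 genes lay below 0, 11 had an unadjusted p under 0.05, all lower, and Etfb was called (-0.72, adjusted p = 0.0203), beside 1.59% of all genes. Over the 20821 genes tested in that fit, the median was 0.004, 49.4% lay below 0 and 1680 were lower at that p. With Trbp-cKO TAC replicate 4 left out too, the median was -0.23, 30 genes lay below 0 and 4 were called lower, namely Etfb, Cpt2, Eci1 and Plin5, beside 2.22% of all genes. Pdk4 stayed above 0 in both fits (0.70 and 0.57).

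**Figure D5:**
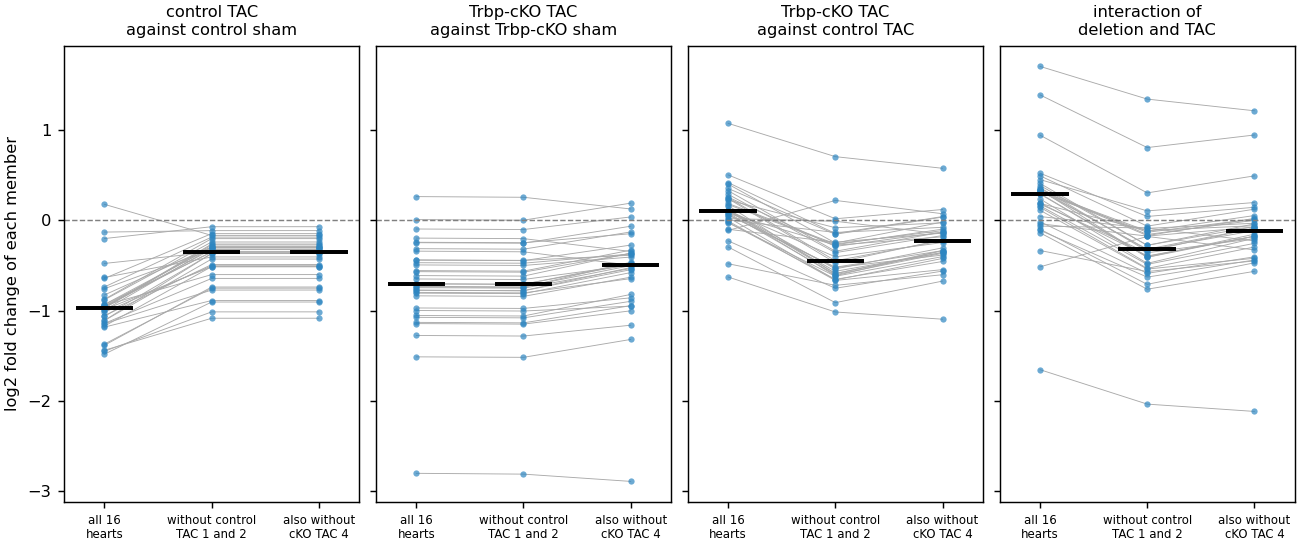
Log2 fold change of each of the 35 genes (points, joined by lines) in 4 contrasts, fitted on all 16 hearts, without control TAC replicates 1 and 2, and also without Trbp-cKO TAC replicate 4. Black bars are medians, which went from 0.10 to -0.45 and -0.23 between the TAC groups and stayed below 0 in both TAC comparisons.

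The interaction of deletion and TAC was called for 0 of 35 genes, where 0.456% of all genes were called negative and 0.591% positive. Its median was 0.29 (-0.01 over all genes) and -0.32 without control TAC replicates 1 and 2, while single hearts left out gave 0.00079 to 0.53. The largest values were those of Pdk4 and Ucp3, in opposite directions, and both were called by DESeq2 (adjusted p = 0.00936 and 0.0454). DESeq2 called 2.05% of all genes negative and 3.12% positive there. At an unadjusted p under 0.05, edgeR gave 2 positive genes and 1 negative gene, beside 1432 and 1637 of the 19955 genes tested.

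The wider pathway was read from 102 further genes that were tested, covering other synthetases and transporters, peroxisomal oxidation, ketone bodies, triglyceride turnover, thioesterases, pyruvate control and other regulators. In control hearts after TAC, 2 of the 102 fell and 1 rose, beside 2.2% and 4.09% of all genes, so these counts do not set the list apart. The falls were those of Acot1 and Rxra, which encodes the partner of PPARα (-0.55 ± 0.13, adjusted p = 0.0261), and Cpt1c, a brain form of the transferase, rose (0.84 ± 0.21, adjusted p = 0.0294), at 9.31 and 9.68 CPM in control TAC replicates 1 and 2 and 5.37 and 5.0 CPM in replicates 3 and 4. Without the low hearts neither Rxra (-0.33, adjusted p = 0.324) nor Cpt1c (0.34, adjusted p = 0.529) was called, and each call was also lost in 6 of the 16 fits that left out 1 heart. The median of the 102 was -0.40, and -0.08 without the low hearts. All 16 other enzymes of oxidation and of linked branched-chain and propionate steps had a log2 fold change below 0, with a median of -0.62 and no call, while without the low hearts 14 were below 0 and the median was -0.23. The 13 other genes of uptake and activation had medians of 0.04 and 0.05.

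In Trbp-cKO hearts after TAC, 9 of the 102 fell and 3 rose, beside 3.92% and 6.02% of all genes. The lowest adjusted p were those of Acot9, a mitochondrial thioesterase (0.78 ± 0.09, adjusted p = 4.21e-05), Pdk3, a pyruvate dehydrogenase kinase (0.90 ± 0.13, adjusted p = 0.000511), and Acot1. The third rise was that of Hif1a, the hypoxia-inducible factor. Other falls, named after their values were seen, included those of Pdp2, a pyruvate dehydrogenase phosphatase (-1.43 ± 0.29, adjusted p = 0.0053), and Slc22a5, the carnitine transporter of the cell membrane (-0.70 ± 0.15, adjusted p = 0.0059), and of Acad10, Pex11a, Mcee, Ech1 and Echdc2.

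Between the TAC groups, 0 of the 102 were lower and 3 were higher in Trbp-cKO hearts, namely Cidea, Acot9 and Hif1a, beside 1.65% and 3.88% of all genes. Acot9 measured 20.2, 21.3, 22.1 and 24.0 CPM in control TAC and 29.2, 31.1, 28.9 and 28.8 CPM in Trbp-cKO TAC hearts (0.43 ± 0.09, adjusted p = 0.00957), without overlap. The call was lost without control TAC replicates 1 and 2 (0.35, adjusted p = 0.0684). It was regained without Trbp-cKO TAC replicate 4 as well (0.36, adjusted p = 0.0469). The interaction of Acot9 was called (0.60 ± 0.12, adjusted p = 0.0325). This call was lost in 10 of the 16 fits that left out 1 heart each (0.55 to 0.62, adjusted p of 0.0508 to 0.0863). Cidea, a lipid droplet protein, was higher in Trbp-cKO hearts after sham surgery (0.70 ± 0.16, adjusted p = 0.0422) and after TAC (1.21 ± 0.17, adjusted p = 0.000703). Its CPM ran from 9.68 to 19.4 in the 8 control hearts and from 26.2 to 35.6 in the 8 Trbp-cKO hearts. Hif1a measured 55.8, 66.4, 51.5 and 63.4 CPM in control TAC and 83.2, 73.8, 103 and 102 CPM in Trbp-cKO TAC hearts, without overlap (0.61 ± 0.13, adjusted p = 0.0166), and the call was lost in 2 of the 16 fits that left out 1 heart. At rest, Ppargc1b, the sister gene of Ppargc1a, was lower in Trbp-cKO hearts (-0.74 ± 0.17, adjusted p = 0.039). Beside it and Cidea, none of the 102 was called at rest, where 0.666% of all genes were lower and 1.02% higher. Leaving out 1 heart undid these calls in 9 of 16 fits for Ppargc1b and in 10 of 16 for Cidea.

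Promoters of 28 members were listed by RefSeq, each reaching from 250 bases before to 50 bases after the start. AGGTCA on either strand occurred in 7 of the 28, or 25.0%, against 18.1% of the 27025 genes in the table: Acadm, Cd36, Ucp3, Echs1, Acadvl, Plin5 and Cpt1a. Of the 10 listed members that fell in either genotype, 2 held it. The direct repeat AGGTCANAGGTCA, which contains it, was in 0 of 28, also with 1 mismatch allowed, against 0.0481% and 0.644% of all genes. TCAAGGTCA, a motif of the estrogen-related receptors that also contains it, was in 0 of 28 and in 0.466% of all genes. These counts say which letters stand in these windows and nothing of binding.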

How the data were processed

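Total RNA of the ventricles was selected for poly(A) and sequenced in pairs. Per the submitters' processing notes and the study's methods, the authors used cutadapt 2.3 for trimming, HISAT2 2.1.0 for alignment to the GRCm38 genome and StringTie 1.3.4 for quantification. The deposited file holds whole-number read counts per gene, not normalized, for all 16 hearts. The annotation release and the use of strand in counting are not given in the sources used here, and reads that overlapping or near-identical genes share may have been split.

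From these counts, genes with low values were removed with edgeR's filterByExpr and 19955 were kept. They were scaled by TMM and fitted in 1 quasi-likelihood model over all 16 hearts with a coefficient per group (edgeR 4.0.16, R 4.3.3), with Benjamini-Hochberg adjustment over all genes tested and a threshold of 0.05. Fold changes are log2 with standard errors, and the ± after a CPM is the SD of 4 hearts. The 35 members and all gene lists were chosen with earlier results of these data known. Every member is reported. Values in each heart are given for called members in order of adjusted p, at most 3 per comparison and direction, for Cpt1a, Cpt1b, Ppara, Ppargc1a and Pdk4 in any case, and for members that show a limit. Of the other genes of the pathway, 104 were listed, 102 were tested and up to 3 per comparison were to be named, by lowest adjusted p. Of those called, 1 is counted but not reported by name here. The score of clock genes is the mean of log2(CPM + 0.5) over the positive arm minus that over the negative arm.

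Alternatives were library size scaling, other filters, halved counts, a fit on the 2 groups compared, edgeR's exact test, DESeq2 1.42.0, the clock score or the replicate number as a term, leaving out the mitochondrial chromosome and leaving out each heart. Leaving out control TAC replicates 1 and 2, alone or with Trbp-cKO TAC replicate 4, was chosen after seeing the data. The script was tested on simulated data. Gene positions are from GENCODE on GRCm38 and promoters from RefSeq on GRCm38.p6. An exact permutation test of 4 against 4 hearts cannot go below 0.0286. It gives this value to any gene whose groups do not overlap, so it adds nothing to the lack of overlap.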

Additional observations from a re-analysis of the deposited data

Results flagged for a closer look

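In groups of 4 hearts, 10 of 180 groups of values had a heart far from the other 3, where chance gives about 9. Trbp-cKO TAC replicate 4 accounted for 6 of the 10. It had 122 CPM of Acsl1 (380, 398 and 433 in the others), 21.8 CPM of Plin5 (51.3, 56.3 and 56.6), 222 CPM of Acadvl (476, 494 and 524), 275 CPM of Acadm (610, 616 and 679), 153 CPM of Etfa (317, 318 and 342) and 106 CPM of Etfdh (289, 301 and 307). In control sham hearts, Hadh was high in replicate 4 (405 CPM against 271, 277 and 289), Echs1 was high in replicate 2 (277 against 254, 256 and 258) and Etfa was low in replicate 1 (482 against 517, 519 and 523). In Trbp-cKO sham hearts, Pdk4 was high in replicate 2 (285 CPM against 133, 134 and 153).

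The effect of TAC on Acot9 differed between the genotypes by edgeR's interaction test on all hearts, with a log2 difference of 0.597. This call was lost in 10 of the 16 fits that left out 1 heart each. Without control TAC replicates 1 and 2 it was lost too (adjusted p = 0.0771), and without Trbp-cKO TAC replicate 4 as well it was regained (adjusted p = 0.0426). Acot9 stood at 18.2 to 20.1 CPM in control sham, 20.2 to 24 CPM in control TAC, 15.4 to 19.4 CPM in Trbp-cKO sham and 28.8 to 31.1 CPM in Trbp-cKO TAC hearts.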

How the results depend on the processing

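All 35 gene results called with all hearts that were examined, 18 of them on the 35 genes, kept their direction in every setting run on them. Past the threshold in every setting were 2 of the 18, Slc27a1 after TAC in control hearts and Ucp3 after TAC in Trbp-cKO hearts. The 10 falls after TAC in control hearts became 6 with no filter, 2 in a fit on those groups alone, 19 with DESeq2, and 1 without control TAC replicates 1 and 2. Of all genes, 0.75%, 0.809%, 5.96% and 0.207% were called lower in the same order, against 2.2% in the main fit. The median of -0.97 over the 35 genes became -1.52 with the clock score in the fit and -0.36 without those hearts, with or without Trbp-cKO TAC replicate 4. Leaving out 1 heart gave 2 to 21 falls and medians of -1.25 to -0.71. The 8 falls in Trbp-cKO hearts became 1 with the clock score and 17 with the exact test, beside 0.837% and 5.62% of all genes. Leaving out 1 heart gave 5 to 11 there, beside 2.32% to 4.82%. There were 20 without control TAC replicates 1 and 2 and 21 without Trbp-cKO TAC replicate 4 as well, beside 6.81% and 7.53%. The median of -0.71 in Trbp-cKO hearts ran from -0.83 to -0.24 over the settings run on it. Between the sham groups there were 0 calls. Lower calls were 2 on those groups alone, 3 with the exact test and 1 with DESeq2, beside 2.5%, 3.55% and 1.92% of all genes. Without control TAC replicates 1 and 2 there was 1, and without Trbp-cKO TAC replicate 4 as well 3, beside 1.38% and 3.65%. The exact test called 1 higher (Ucp3), beside 5.14% of all genes. The median was -0.80 with the clock score. Between the TAC groups, 1 lower call (Etfb) was made by DESeq2 and without control TAC replicates 1 and 2, and 4 without Trbp-cKO TAC replicate 4 as well, with a median of -0.45 without the first 2 hearts. Of all genes, 3.51%, 1.59% and 2.22% were called lower in these fits. Pdk4 was the 1 higher call with library size scaling, the clock score, DESeq2 and in 1 of the fits without 1 heart, and there were 0 in others. In the fits that called it, 9.24%, 3.98%, 7.71% and 2.51% of all genes were called higher. DESeq2 called 1 negative and 1 positive interaction, beside 2.05% and 3.12% of all genes. The median interaction was 1.18 with the clock score and -0.32 without control TAC replicates 1 and 2. The cause of these shifts was not tested.

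Replicate numbers did not pair the hearts, since same-numbered hearts deviated together with correlations of -0.58 to 0.31. With the replicate number as a block, 3 falls were called in control and 5 in Trbp-cKO hearts, beside 0.942% and 2.53% of all genes.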
